A study of Mus musculus with 32 samples.

Results

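Hormone receptors of the kidney were described here through 7 genes, namely the prolactin receptor (Prlr), the growth hormone receptor (Ghr), the parathyroid hormone receptor (Pth1r), the insulin receptor (Insr), the estrogen receptor alpha (Esr1) and the thyroid hormone receptors alpha (Thra) and beta (Thrb). They were picked by gene symbol from the 54532 genes of the count table, with earlier results of these data known, and Prlr had been noted for its levels at Day 0. For that reason the comparison of the sexes at Day 0 is given as a description for all 7 genes, and Prlr carries no test wherever Day 0 enters.

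The study followed the course of cisplatin injury in both sexes. Kidney RNA was sequenced from 32 wild-type (wt) C57bl/6 mice aged 6 to 8 weeks, each library from 1 mouse, in 8 groups of 4 mice. The groups were male and female mice at Day 0, and male and female mice at Day 2, Day 3 and Day 5 after a single intraperitoneal dose of 20 mg/kg cisplatin, a platinum anticancer drug that injures the kidney tubule. Day 0 males carry no treatment in the sample labels, whereas Day 0 females are labelled with cisplatin as well; the study's text calls Day 0 mice healthy, and they were taken as undosed. The spread between mice also holds any difference in dissection and library preparation.

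Hormone receptors translate blood-borne signals into changes in a cell. Prlr and Ghr are cytokine receptors at the cell surface that signal through Jak2 and Stat5, Pth1r is a G protein-coupled receptor and Insr a receptor tyrosine kinase, while Esr1, Thra and Thrb are nuclear receptors that bind DNA. In the kidney, parathyroid hormone acting on Pth1r in the proximal tubule lowers phosphate reabsorption and raises production of active vitamin D, and insulin restrains glucose production by the same cells. Expression of Prlr in the rodent kidney is known to depend on sex steroids.

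Gene positions matched the GRCm38 annotation exactly. Prlr and Ghr both lie on chromosome 15, Prlr on the plus strand from 10177238 to 10349180 and Ghr on the minus strand from 3317760 to 3583492. Pth1r lies on chromosome 9 (110722085 to 110747145, minus strand), Insr on chromosome 8 (3122061 to 3279617, minus strand), Esr1 on chromosome 10 (4611593 to 5005614, plus strand), Thra on chromosome 11 (98740638 to 98769006, plus strand) and Thrb on chromosome 14 (17660261 to 18038090, plus strand). Reads were counted over the exons of each gene. A gene on the opposite strand shares 263 exon bases with Thra, which is 5.7% of its exon length, and another shares 95 bases with Pth1r (3.248%). A gene on the same strand shares 203 bases with Prlr (1.323%). Whether counting used strand is not given in the sources used here, so reads in these stretches cannot be assigned to one gene.

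RefSeq promoter windows of GRCm38.p6, from 250 bases before to 50 bases after a transcript start, were found for 5 of the 7 genes, 12 windows in all. Thra and Insr had none. The windows were searched on both strands for the nuclear receptor half-site AGGTCA, for the STAT palindrome TTCNNNGAA that the cytokine receptors' transcription factors bind, and for the palindromic estrogen response element. The stretches of 30 bases around the 3 matches are shown because receptors of this set either bind such a motif themselves or signal through factors that do, and capitals mark the motif.
Prlr, window 2 (chr15:10223786-10223815, plus strand): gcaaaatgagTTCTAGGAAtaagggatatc
Esr1, window 2 (chr10:4709960-4709989, plus strand): ctggagtttcTTCTAGGAAtgctgattcta
Thrb, window 1 (chr14:17660764-17660793, plus strand): aggagagttgacAGGTCAagggaatagggc
The palindromes of Prlr and Esr1 had the same 9 letters, at 110 and 188 bases before their starts (position -110 and -188). The half-site of Thrb began at position -184. Among all 32851 mouse promoter windows, 8.3% held the palindrome, 16.3% the half-site and 0.07% the estrogen response element, the last of which was in none of the 12 windows. Such a match is a description of the letters in the window, and no binding was measured.

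Library totals ranged from 16502107 to 35961325 counts, and Xist and the Y-linked genes separated the sexes as labelled in all but the library labelled male Day 5 mouse 1, although Day 0 males held 0 to 242 Xist counts and Day 0 females 5 to 221 Y-linked counts. That library held 4153 Xist counts beside 387 counts of 4 Y-linked genes, whereas the other male Day 5 libraries held 260, 89 and 59 Xist counts. Mitochondrial genes took 42.5% to 79.8% of the counts in male Day 5 mice and 9.30% to 77.9% in female Day 5 mice, against 4.49% to 24.0% in the other 24 libraries. Markers of the kidney were present throughout, with all 9 proximal tubule markers above 0 in every group and a summed level from 1369 CPM (counts scaled to library size with TMM factors) to 88149 CPM. Markers of neighbouring tissue also appeared, with a summed level of 7 hepatocyte markers of 9986 CPM in female Day 0 mouse 2 (between 49.15 and 349.9 CPM in the other Day 0 females) and of 7 adrenal cortex markers of 1307 and 1618 CPM in female Day 3 mice 3 and 4, 408.2 to 1048 CPM in the 4 female Day 5 libraries, 380.5 CPM in male Day 2 mouse 2 and 245.2 CPM in female Day 0 mouse 2. Summed adipocyte markers were 314.8, 317.4, 402.3 and 1664 CPM in the Day 0 males, the last in mouse 4. They were 161.2 to 217.5 CPM in Day 3 males and 567.2 to 2602 CPM in Day 5 males. The part of these tissues in the results below was not tested. In whole tissue, fewer cells of a type and less RNA per cell cannot be told apart.

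Per unit of length, in the FPKM deposited by the authors, Pth1r was the highest of the 7 genes and Ghr the next in the mean of every group. In male Day 0 mice, Pth1r averaged 275.6 FPKM, Ghr 57.85, Thra 14.06, Insr 4.138, Thrb 2.999, Esr1 0.8386 and Prlr 0.404, and only the neighbours Esr1 and Prlr overlapped. In female Day 0 mice the order was Pth1r (301.4 FPKM), Ghr (41.49), Thra (15.62), Prlr (7.753), Insr (4.511), Thrb (2.544) and Esr1 (0.6286). Prlr thus followed Thra in females and stood last in males, although its range overlapped that of Insr in females, and that of Insr overlapped Thrb.

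**Figure D1:**
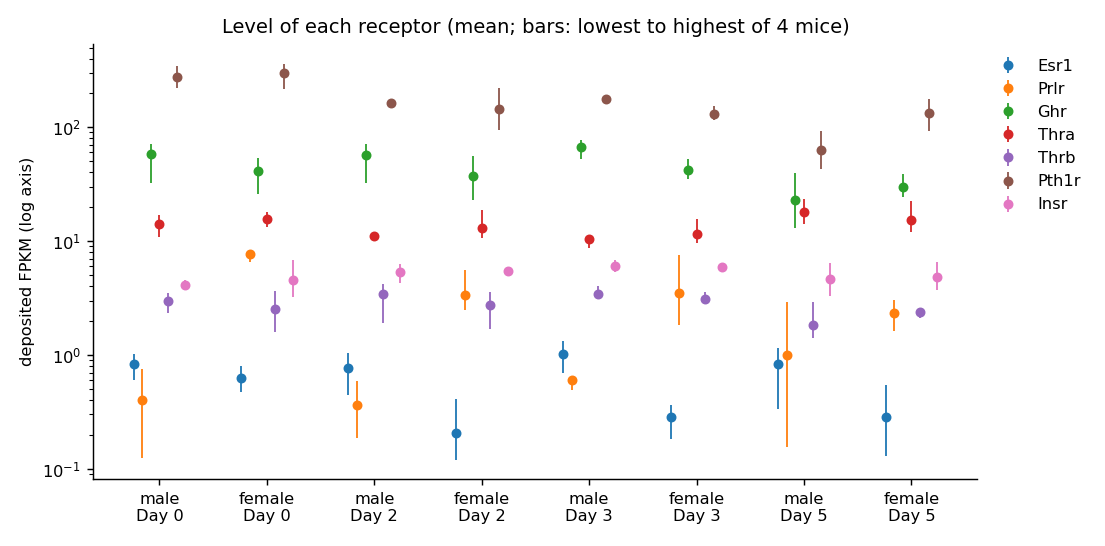
Mean deposited FPKM (log axis) of each receptor in the 8 groups, with bars from the lowest to the highest of 4 mice. Pth1r and Ghr lead in every group, and Prlr lies at 7.753 FPKM in female and 0.404 FPKM in male Day 0 mice.

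The order changed little after cisplatin in males until Day 5, when Pth1r had come down to 63.12 FPKM and Ghr, at 23.12, overlapped Thra at 18.04. In female Day 5 mice, Pth1r stood at 134.1 FPKM, Ghr at 29.74 and Thra at 15.23, and these 3 did not overlap. The library sizes behind the deposited FPKM differ from the total counts, as described with the processing below, which bears on levels compared between days. Esr1 was the lowest of the 7 in every female group, with means of 0.2052 FPKM at Day 2, 0.2826 at Day 3 and 0.2834 at Day 5. All 7 genes passed the filter on low counts in every comparison, and the fewest counts behind a value were 16 for Prlr in male Day 5 mouse 4 and 48 for Esr1 (also at Day 5), so single values near these counts are the least precise.

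Of the 6 genes tested against Day 0 (without Prlr), Pth1r passed an adjusted p of 0.05 in 4 of the 6 comparisons and was the receptor that changed most often. In males, 1 of 6 passed at Day 2, where 3.16% of all genes tested passed, 2 of 6 at Day 3 (24.5% of all genes) and 2 of 6 at Day 5 (19.2%). In females, 0 of 6 passed at Day 2 (1.93% of all genes), 2 of 6 at Day 3 (5.54%) and 0 of 6 at Day 5 (0.258%). Without female Day 0 mouse 4, 28.3%, 39.1% and 12.6% of all genes passed in these 3 female comparisons, and with 1 other mouse left out 0% to 3.15% passed at Day 3. For the 2 comparisons with none, edgeR gave 2 of 6 each at an unadjusted p under 0.05 (25.3% and 15.7% of all genes), DESeq2 gave 2 and 1 after adjustment (13% and 4.5%), and limma voom gave 4 and 2 (50% and 18.9%). The study also set a limit of 1.5 on a log fold change, taken here as an absolute log2 value, and with it 0, 0 and 1 of 6 remained in males at Day 2, Day 3 and Day 5 (0.716%, 3.72% and 7.53% of all genes) and 0 in females at each day (1.41%, 2.48% and 0.228%).

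Groups that did not overlap can be counted for all 7 genes. Against Day 0, the CPM ranges of 1, 2 and 1 of 7 receptors were apart in males at Day 2, Day 3 and Day 5, where those of 24.4%, 38.3% and 27.3% of all genes were. In females 2 of 7 were apart at each day, against 15.3%, 19.3% and 8.6% of all genes, with Prlr among them at Day 2 and Day 5 as a description. Between the sexes 2 of 7 were apart at Day 2 (8.96%), 4 at Day 3 (25.7%) and 0 at Day 5 (8.85%). Without the library labelled male Day 5 mouse 1, 5 were apart between the sexes at Day 5 (Prlr, Esr1, Ghr, Thrb and Pth1r), where 28.8% of all genes were, 3 in males from Day 0 to Day 5 (40.1%) and 6 from Day 3 to Day 5 (57.8%). Between successive days, 4 were apart from Day 3 to Day 5 in males (41.5%) and 1, Thrb, in females (7.4%), and 0 from Day 2 to Day 3 in males (6.45%) or females (2.9%).

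**Figure D2:**
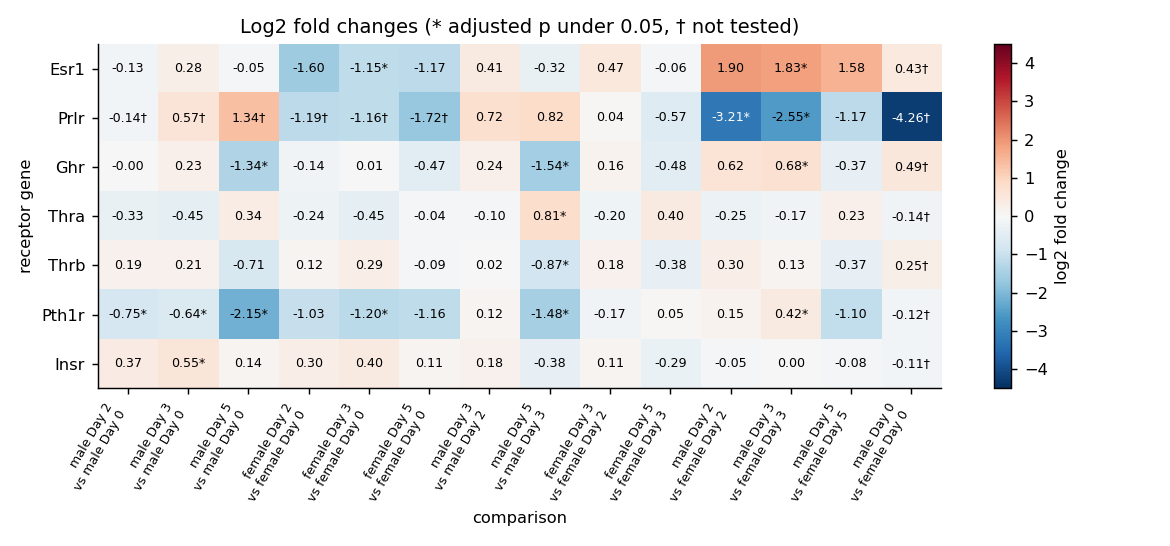
Log2 fold change (colour and number) of each receptor in 14 comparisons, first group against second, with an asterisk for an adjusted p under 0.05 and a dagger where no test was made. Pth1r is negative in all 6 comparisons with Day 0, from -0.64 to -2.15, and Prlr is negative in all 4 comparisons of males with females.

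Prlr binds prolactin, the pituitary hormone best known for lactation. At Day 0, its level was 103.6, 129.0, 123.1 and 121.5 CPM in the 4 female mice and 4.72, 1.95, 6.68 and 11.9 CPM in the 4 male mice. Every female lay far above every male, with a difference, male minus female, of -4.26 ± 0.49 (SE) on the log2 scale, which is 19.2-fold. Prlr was the only one of the 7 genes whose ranges stood apart between the sexes at Day 0, where 6.17% of all genes tested stood apart.

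**Figure D3:**
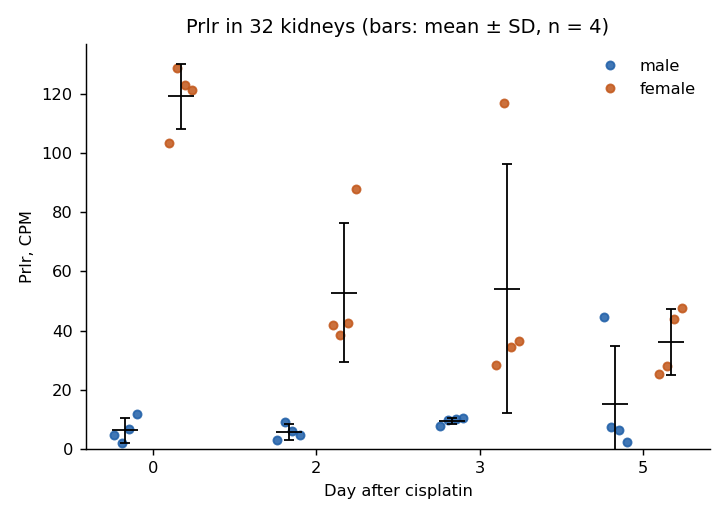
Prlr in CPM by day for male (blue) and female (orange) mice, 1 point per mouse, with mean ± SD (n = 4) and days drawn as categories; the lower bar of male Day 5 is cut off at 0. The 4 female Day 0 mice sit between 103.6 and 129.0 CPM, and single mice at 87.93, 117.1 and 44.64 CPM stand above their groups at female Day 2, female Day 3 and male Day 5.

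After cisplatin, Prlr was lower in most females. At Day 2 the female mice had 42.0, 38.5, 42.5 and 87.9 CPM, all below the Day 0 range. At Day 3 they had 28.2, 117.1, 34.5 and 36.6 CPM, so that mouse 2 remained within the Day 0 range and the other 3 were below it. At Day 5 they had 25.4, 28.1, 43.8 and 47.5 CPM, again all below Day 0. The log2 fold changes against female Day 0 were -1.19 ± 0.28 (SE) at Day 2, -1.16 ± 0.43 at Day 3 and -1.72 ± 0.24 at Day 5, and leaving out female Day 3 mouse 2 gave -1.86 at Day 3. Summed proximal tubule markers in that mouse were 12207 CPM, against 4190, 5687 and 5729 CPM in the other Day 3 females, and in female Day 2 mouse 4, the highest for Prlr in its group, they were 11824 CPM against 5465 to 10572 CPM. The summed hepatocyte markers of female Day 3 mouse 2 were 368 CPM, against 57.39 to 74.75 CPM in the others. Across the female groups, the summed proximal tubule markers were 12577 to 43815 CPM at Day 0 and 5465 to 11824 CPM at Day 2. They were 4190 to 12207 CPM at Day 3 and 3994 to 8931 CPM at Day 5. The part of either list in the Prlr values was not tested.

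In males Prlr stayed low, with 2.90, 9.19, 6.11 and 4.66 CPM at Day 2 and 7.80, 9.57, 10.1 and 10.3 CPM at Day 3. At Day 5 it was 44.64, 7.28, 6.45 and 2.25 CPM. The first of these is the library whose Xist count goes against its label. The log2 fold change against male Day 0 was 1.34 ± 0.83 with that library and -0.17 ± 0.62 without it, so that its sign rests on this library. Against Day 3, Prlr in Day 5 males differed by 0.82 (adjusted p = 0.371) with it and by -0.76 (adjusted p = 0.0612) without it.

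The sexes differed in Prlr after cisplatin too, in mice that the choice of this gene did not use. At Day 2 no male reached the lowest female, and Prlr in males minus that in females was -3.21 ± 0.39 on the log2 scale (SE, adjusted p = 0.00235), a 9.27-fold difference. At Day 3 the ranges were again apart, at -2.55 ± 0.49 (adjusted p = 0.0115, 5.86-fold), and -1.83 ± 0.11 (adjusted p = 5.18e-06) without female Day 3 mouse 2. At Day 5 the ranges overlapped through male mouse 1 and the difference of -1.17 ± 0.72 did not pass (adjusted p = 0.383), whereas without that library it was -2.66 ± 0.38 (adjusted p = 0.0011). Both calls at Day 2 and Day 3 were kept in all 8 fits that left out 1 mouse.

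Across the receptors, 1 of 7 passed between the sexes at Day 2 (Prlr, against 1.47% of all genes tested), and 4 of 7 at Day 3 (Prlr, Esr1, Ghr and Pth1r, against 21.3%). With the fold limit added, 1 remained at Day 2 (0.813% of all genes) and 2, Prlr and Esr1, at Day 3 (1.93%), and 0 stood at Day 5 (0.236%). At Day 5 edgeR called 0 of 7, against 0.276% of all genes, with 2 of 7 at an unadjusted p under 0.05 (20.3% of all genes), while DESeq2 called 2 (7.14%) and limma voom 5 (29.7%). Without the library labelled male Day 5 mouse 1, edgeR called 4 of 7 at Day 5, namely Prlr, Esr1, Pth1r and Thrb, and 17% of all genes.

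Esr1, the nuclear receptor for estradiol, was the other gene with a wide gap between the sexes after cisplatin, in the opposite direction. At Day 0 it was 13.2, 11.4, 13.8 and 8.40 CPM in males and 6.68, 8.85, 10.53 and 8.31 CPM in females, and these ranges overlapped. In females it was 1.82, 1.66, 2.23 and 5.70 CPM at Day 2, 4.04, 5.02, 4.03 and 2.56 CPM at Day 3, and 4.28, 7.22, 1.82 and 2.06 CPM at Day 5. The Day 2 and Day 3 females were all below the lowest Day 0 female, and 1 of the Day 5 females was not.

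Esr1 fell in females at Day 3, by 1.15 on the log2 scale (SE 0.26, adjusted p = 0.0479), a 2.21-fold difference. This call lay at the threshold and held in 1 of 8 fits without 1 mouse, and it was lost with DESeq2's size factors (adjusted p = 0.0515) and without a filter on low counts (adjusted p = 0.0571). At Day 2 the log2 fold change was -1.60 ± 0.41 (adjusted p = 0.0572), and it passed without female Day 2 mouse 4, at -2.16 ± 0.33 (adjusted p = 0.0212). At Day 5 it was -1.17 ± 0.45 and did not pass (adjusted p = 0.261). The summed proximal tubule markers were 12577 to 43815 CPM in Day 0 females and 4190 to 12207 CPM in Day 3 females. Summed adrenal cortex markers were 28.19, 20.03, 1307 and 1618 CPM in the Day 3 females. The part of both lists in the fall of Esr1 was not tested.

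In males Esr1 did not pass at any day. It was 11.9, 9.87, 14.3 and 6.37 CPM at Day 2, 9.80, 17.6, 10.9 and 18.6 CPM at Day 3, and 4.53, 13.2, 15.2 and 10.8 CPM at Day 5, and each of these groups overlapped Day 0. The lowest of the Day 5 males was again the library labelled mouse 1, at a level found in the Day 5 females. Log2 fold changes against male Day 0 were -0.13, 0.28 and -0.05 at Day 2, Day 3 and Day 5, with adjusted p of 0.774, 0.430 and 0.937.

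Males had more Esr1 than females at Day 3, by a log2 fold change of 1.83 ± 0.27 (SE, adjusted p = 0.00275), which is 3.55-fold. Every Day 3 male was above every Day 3 female, and the call held in 8 of 8 fits without 1 mouse. At Day 2 the ranges were also apart, at 1.90 ± 0.41, with an adjusted p of 0.0529, and without female Day 2 mouse 4 it was 2.46 ± 0.31 (adjusted p = 0.00485). At Day 5 the difference was 1.58 ± 0.52 (adjusted p = 0.160), and without the library labelled male Day 5 mouse 1 it was 1.92 ± 0.45 (adjusted p = 0.0124).

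Pth1r, the receptor through which parathyroid hormone controls phosphate and vitamin D, had the highest level of the 7 genes per unit of length (FPKM) and fell in males at each day. Its level was 811, 824, 987 and 666 CPM in male mice at Day 0, 493, 466, 502 and 478 CPM at Day 2, 496, 553, 527 and 537 CPM at Day 3, and 268, 148, 120 and 179 CPM at Day 5. No dosed male reached the lowest Day 0 male. The log2 fold changes against Day 0 were -0.75 ± 0.17 (SE, adjusted p = 0.0496) at Day 2, -0.64 ± 0.15 (adjusted p = 0.0231) at Day 3 and -2.15 ± 0.32 (adjusted p = 0.00638) at Day 5, the last a 4.43-fold difference.

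The Day 5 call of Pth1r in males held in all 8 fits without 1 mouse, and the log2 fold change was -2.39 without the library labelled mouse 1. The Day 3 call held in 4 of 8 and was lost in a fit over all 8 groups (adjusted p = 0.0693), and the Day 2 call held in 2 of 8 and was lost with DESeq2's size factors (adjusted p = 0.0509). Pth1r also fell between Day 3 and Day 5, by 1.48 on the log2 scale (SE 0.24, adjusted p = 0.00361). Proximal tubule markers moved with it, with a summed level of 19894 to 88149 CPM in Day 0 males, 14643 to 23366 CPM at Day 3 and 1369 to 7677 CPM at Day 5, and their part in the change was not tested.

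In females Pth1r was 857.5, 1018, 1021 and 640 CPM at Day 0. It was 671, 280, 336 and 449 CPM at Day 2, 357, 451, 342 and 402 CPM at Day 3, and 388, 261, 532 and 409 CPM at Day 5. The Day 3 and Day 5 females were all below the lowest Day 0 female, while 1 of the Day 2 females was not. Pth1r fell at Day 3 by 1.20 on the log2 scale (SE 0.22, adjusted p = 0.0465), a 2.30-fold difference that held in 2 of 8 fits without 1 mouse. The summed proximal tubule markers were 12577 to 43815 CPM in females at Day 0 and 4190 to 12207 CPM at Day 3, and their part was not tested.

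At Day 2 and Day 5 the female differences in Pth1r did not pass, at -1.03 ± 0.34 (adjusted p = 0.0970) and -1.16 ± 0.30 (adjusted p = 0.150). Both passed without female Day 0 mouse 4, the lowest of the Day 0 females, at -1.15 (adjusted p = 0.0235) and -1.28 (adjusted p = 0.0208). Males were higher than females at Day 3 by 0.42 ± 0.10 (adjusted p = 0.0171), a call that held in 4 of 8 fits without 1 mouse and was lost in a fit over all 8 groups (adjusted p = 0.598). At Day 5 males were at a mean of 178.9 ± 64.4 CPM and females at 397.5 ± 110.9 CPM (SD, n = 4), and the difference of -1.10 ± 0.30 did not pass (adjusted p = 0.123). It passed without the library labelled male Day 5 mouse 1 (-1.30, adjusted p = 0.00853), without a filter on low counts (adjusted p = 0.0319), in the fit over all 8 groups (0.00741), and with DESeq2 (0.0114) and limma voom (0.00154).

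**Figure D4:**
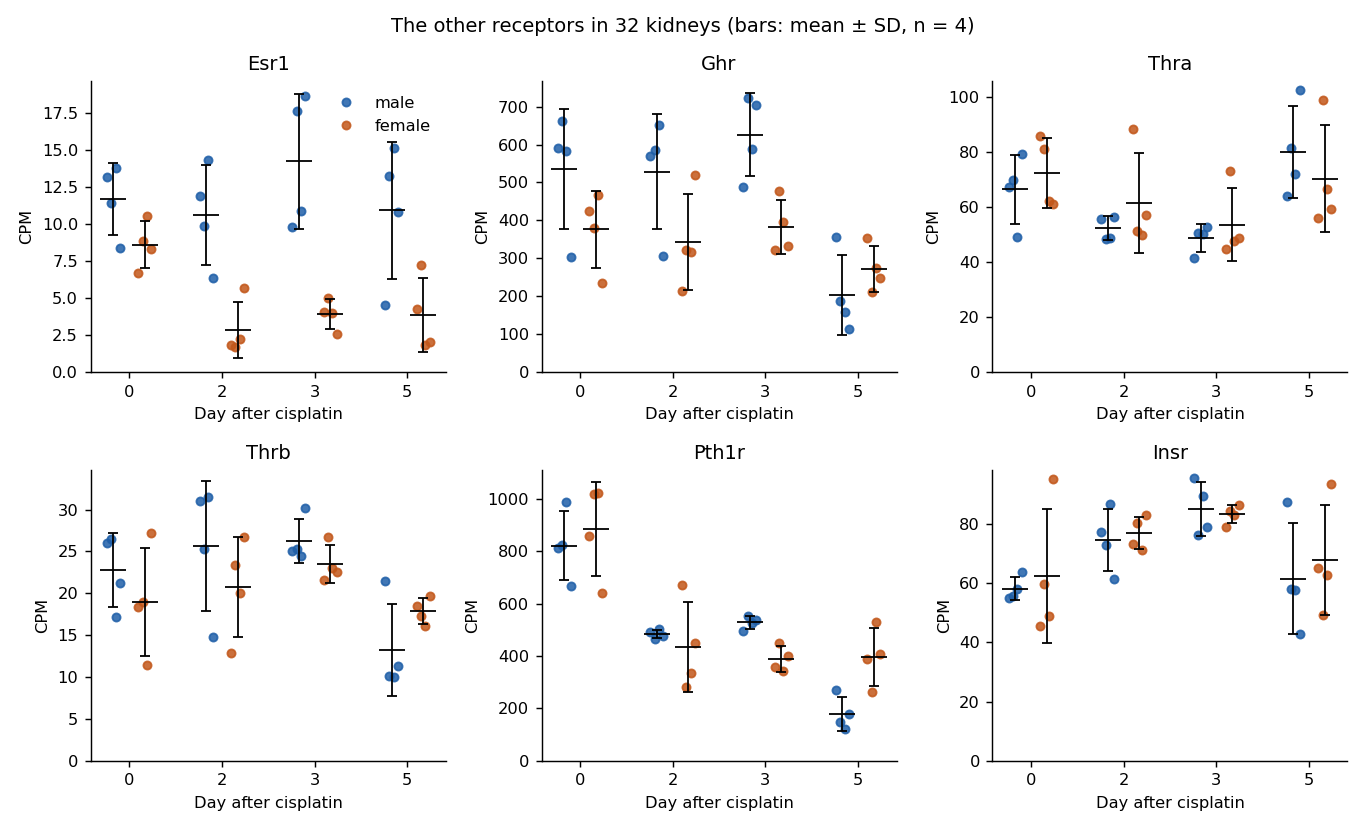
CPM of the 6 other receptors by day, in male (blue) and female (orange) mice, 1 point per mouse with mean ± SD (n = 4) and days drawn as categories. Pth1r in Day 5 males lies at 120 to 268 CPM, below every other group apart from 1 overlapping female Day 5 mouse at 261 CPM, and Esr1 in Day 3 females at 2.56 to 5.02 CPM lies below every Day 3 male.

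Ghr, which binds growth hormone and raises Igf1 in its target tissues, held its level in males until Day 3 and was lower at Day 5. It was 590, 661, 584 and 303 CPM at Day 0, 569, 587, 653 and 307 CPM at Day 2, 489, 723, 588 and 705 CPM at Day 3, and 356, 188, 158 and 112 CPM at Day 5. The Day 5 males were all below the Day 3 males, but mouse 1 overlapped the lowest of the Day 0 males. Igf1 did not fall with Ghr in Day 5 males, at a log2 fold change of 1.23 against Day 0 (adjusted p = 0.0746). Without the library labelled mouse 1 the change of Igf1 was 1.53 ± 0.33 (SE, adjusted p = 0.00997).

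Ghr fell in males from Day 3 to Day 5 by 1.54 on the log2 scale (SE 0.33, adjusted p = 0.0091), a 2.90-fold difference that held in 8 of 8 fits without 1 mouse. Against Day 0 it fell by 1.34 (SE 0.40, adjusted p = 0.0437), which held in 2 of 8 such fits and was -1.73 (adjusted p = 0.00678) without the library labelled mouse 1. In females, with 424, 380, 468 and 235 CPM at Day 0 and 355, 211, 273.9 and 248.8 CPM at Day 5, the log2 fold change was -0.47 ± 0.28 (adjusted p = 0.434). At Day 3 males were higher than females by 0.68 ± 0.16 (adjusted p = 0.0164), with no overlap, and the call held in 6 of 8 fits without 1 mouse but not in a fit over all 8 groups (adjusted p = 0.426). The summed proximal tubule markers were 14643 to 23366 CPM in Day 3 males and 4190 to 12207 CPM in Day 3 females, and in males at Day 5 they were 1369 to 7677 CPM. Their part in the differences of Ghr, and in those of Esr1 and Pth1r between the sexes at Day 3, was not tested.

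Insr was the receptor that rose in males at Day 3. It was 55.0, 55.5, 58.1 and 63.7 CPM at Day 0 and 95.4, 76.1, 89.3 and 78.7 CPM at Day 3, with every Day 3 male above every Day 0 male. In the same males the summed endothelial markers were 176.3 to 221.3 CPM at Day 0 and 280.2 to 292.9 CPM at Day 3, the summed podocyte markers 122 to 211.4 and 303.3 to 363.7 CPM, and their part was not tested. The log2 fold change was 0.55 ± 0.12 (SE, adjusted p = 0.0163), which held in 6 of 8 fits without 1 mouse and was lost in a fit over all 8 groups (adjusted p = 0.0573). At Day 2, with 77.3, 72.8, 86.7 and 61.4 CPM, it was 0.37 ± 0.14 (adjusted p = 0.129), and at Day 5, with 87.3, 58.1, 57.5 and 42.7 CPM, it was 0.14 ± 0.22 (adjusted p = 0.672).

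In females Insr was 45.4, 59.8, 49.0 and 94.9 CPM at Day 0 and 79.0, 84.2, 83.0 and 86.2 CPM at Day 3. The log2 fold change was 0.40 ± 0.23 and did not pass (adjusted p = 0.267). Mouse 4 stood highest at Day 0, and without that mouse the value was 0.68 ± 0.13 (adjusted p = 0.00525), and that at Day 2 was 0.58 ± 0.19 (adjusted p = 0.0402). The same mouse had the lowest Ghr and Pth1r of its group and a mitochondrial share of 19.7%, the highest of the Day 0 females.

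The 2 thyroid hormone receptors moved in opposite directions late in males. Thra was 41.4, 50.7, 50.3 and 52.7 CPM in Day 3 males and 64.2, 81.4, 72.0 and 102.8 CPM in Day 5 males, with no overlap. It rose by 0.81 ± 0.17 (SE, adjusted p = 0.00761), in 8 of 8 fits without 1 mouse. Thrb, with 25.0, 25.2, 24.5 and 30.2 CPM at Day 3 and 21.4, 10.1, 9.99 and 11.4 CPM at Day 5, fell by 0.87 on the log2 scale (SE 0.23, adjusted p = 0.0188), in 5 of 8 such fits. Without the library labelled male Day 5 mouse 1 the changes were 0.88 for Thra and -1.25 for Thrb. From Day 3 to Day 5 males, summed proximal tubule markers went from 14643 to 23366 CPM to 1369 to 7677 CPM. Collecting duct markers went from 597.5 to 698.1 CPM to 1036 to 1768 CPM. Adipocyte markers went from 161.2 to 217.5 CPM to 567.2 to 2602 CPM. The part of these lists was not tested.

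Neither thyroid receptor passed against Day 0. Thra in Day 0 males was 67.3, 70.0, 49.0 and 79.4 CPM, with a Day 3 difference of -0.45 ± 0.16 (adjusted p = 0.0662) and a Day 5 difference of 0.34 ± 0.22 (adjusted p = 0.287). Without male Day 0 mouse 3 the Day 3 difference passed (adjusted p = 0.00372), as did that at Day 2 (-0.47, adjusted p = 0.0284). Thrb in Day 0 males was 26.1, 26.5, 17.1 and 21.3 CPM, and its Day 5 difference of -0.71 ± 0.28 (adjusted p = 0.0997) passed without the library labelled male Day 5 mouse 1 (-1.03, adjusted p = 0.00945). In females the log2 fold changes of Thra against Day 0 lay between -0.45 and -0.04, those of Thrb between -0.09 and 0.29, and no adjusted p was under 0.171.

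Between Day 3 and Day 5 in males, 4 of 7 receptors passed (Pth1r, Ghr and Thrb lower, Thra higher), where 37.9% of all genes tested passed, and 1 of them (Ghr) also passed the fold limit (9.64%). Without the library labelled male Day 5 mouse 1, Insr passed as well, at -0.61 ± 0.14 (adjusted p = 0.00398) against -0.38 with it (adjusted p = 0.147), which made 5 of 7, and 55.2% of all genes passed. The mitochondrial share lay between 11.3% and 12.6% of the counts in the Day 3 males and between 42.5% and 79.8% in the Day 5 males. With mitochondrial genes left out of the counts, the number of receptors called was 4 as well. No receptor was called between Day 2 and Day 3 in males or females or between Day 3 and Day 5 in females, where edgeR called 0 of all genes. At an unadjusted p under 0.05, 1, 0 and 2 receptors and 1410, 678 and 1973 genes stood below the threshold in these 3 comparisons, and DESeq2 called 0 receptors and limma voom 0 in each. Over all genes DESeq2 called 25 higher and 47 lower, 56 and 5, and 23 and 16 in the 3 comparisons, and limma voom 2 and 0, 7 and 3, and 0 and 0.

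A change past the threshold in one sex only is no difference between the sexes, so the difference of the changes was tested as an interaction. None of 6 receptors passed at Day 2, Day 3 or Day 5, where 0%, 0.0114% and 0.243% of all genes passed. Without the library labelled male Day 5 mouse 1, 0 of 6 passed at Day 5 and 6.74% of all genes. At an unadjusted p under 0.05, 1, 2 and 1 of 6 stood below the threshold (4.23%, 7.11% and 15.2% of all genes). DESeq2 called 0 at each day (0.12%, 0.466% and 4.05%), and limma voom called 1, 1 and 5 (11.2%, 12% and 32.5%). Of the 6 tested, Esr1 had the largest estimate at each day, with the change in males above that in females by 1.45 ± 0.50 (SE, adjusted p = 0.9999), 1.40 ± 0.36 (adjusted p = 0.427) and 1.14 ± 0.58 (adjusted p = 0.372) on the log2 scale. For Pth1r the values were 0.25 ± 0.36, 0.54 ± 0.25 and -1.01 ± 0.42.

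Genes of each receptor's pathway were taken from lists drawn up with earlier results known. The calls in Day 5 males given below include the library labelled mouse 1. Without it they were kept, with log2 fold changes against Day 0 of 2.37 for Igfbp2 (2.05 with it), -1.83 for Igfbp4 (-1.38), -2.93 for Hsd17b2 (-2.84), -4.83 for Ttr (-3.98), -4.11 for Slc34a1 (-2.93), -3.28 for Slc34a3 (-2.17) and 1.01 for Grb14 (0.92), at adjusted p of 0.000401 to 0.011. Over all lists, 20 of 113 genes passed in Day 5 males with that library and 42 without it, where 19.2% and 26% of all genes did. Of 18 tested genes of prolactin and growth hormone signalling (20 listed), 3 rose and 2 fell in males at Day 3, where 24.5% of all genes passed, and the list's median log2 fold change was 0.27 against 0.02 over all genes. That median was 0.03 against 0.03 in females at Day 3 and -0.02 against 0.04 in males at Day 5. Socs3, an inhibitor of Jak kinases, rose in females at Day 3 from 2.88 ± 0.85 to 20.6 ± 12.1 CPM (SD, n = 4, adjusted p = 0.0465), the 1 of 18 that passed there, where 5.54% of all genes did. In males at Day 5, 1 of 18 rose and 1 fell (19.2% of all genes passed), and both bind insulin-like growth factors. Igfbp2 had fallen in males at Day 3, from 8.95 ± 4.67 to 3.19 ± 0.61 CPM (adjusted p = 0.0226), and at Day 5 was higher than at Day 0, at 35.4 ± 19.2 CPM (adjusted p = 0.0246). Its log2 fold changes in females were -2.35 to -2.72 against Day 0 and did not pass (adjusted p = 0.0596 to 0.205). The Day 0 females include mouse 2, whose summed hepatocyte markers were 9986 CPM, and the part of that mouse in these changes was not tested. Igfbp4 fell from 950.2 ± 139.1 to 351.1 ± 203.4 CPM (adjusted p = 0.0393).

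For the estrogen receptor's relatives, coregulators and metabolising enzymes, 4 of 15 tested genes rose and 1 fell in males at Day 3, where 24.5% of all genes passed. In females at Day 3, edgeR called 0 of 17 (5.54% of all genes), with 5 at an unadjusted p under 0.05 (30.7%), DESeq2 called 3 (21.3%) and limma voom 8 (47.8%). Hsd17b2, which inactivates estradiol, was the gene that fell, from 19.4 ± 9.71 CPM in Day 0 males to 6.81 ± 0.42 at Day 3 (adjusted p = 0.0278) and 2.55 ± 1.49 at Day 5 (adjusted p = 0.0129). It was higher in males than in females at Day 2 (6.17 ± 1.55 against 2.47 ± 0.47 CPM, adjusted p = 0.0217) and at Day 3 (6.81 ± 0.42 against 2.77 ± 0.67 CPM, adjusted p = 0.00175). The coactivators Ncoa1 and Ncoa3 rose in males at Day 3 by 0.58 and 0.59 on the log2 scale (adjusted p = 0.0184 and 0.0124).

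In the thyroid hormone list, 1 of 17 tested genes fell and 0 rose in males at Day 2 (3.16% of all genes passed), 5 of 16 fell and 2 rose at Day 3 (24.5%), and 3 of 16 fell and 2 rose at Day 5 (19.2%). In females 2 of 17 fell and 0 rose at each of Day 2, Day 3 and Day 5, where 1.93%, 5.54% and 0.258% of all genes passed. Dio1, the deiodinase that makes active thyroid hormone, fell in females from 119.8 ± 21.0 CPM at Day 0 to 33.7 ± 17.8 at Day 2 (adjusted p = 0.0298) and 22.9 ± 3.06 at Day 5 (adjusted p = 0.00193). Thrsp, a lipogenic gene known to respond to thyroid hormone, fell in females from 197.1 ± 78.8 to 22.1 ± 8.27 CPM at Day 2 (adjusted p = 0.00456). In the same females the summed adipocyte markers were 499.2 to 909.2 CPM at Day 0 and 266.6 to 380.7 CPM at Day 2. The summed proximal tubule markers were 12577 to 43815 CPM at Day 0, 5465 to 11824 CPM at Day 2 and 3994 to 8931 CPM at Day 5, and the part of both lists was not tested. Ttr, the thyroxine carrier, is also a hepatocyte marker, and it fell in males from 191.6 ± 85.3 to 11.6 ± 10.6 CPM at Day 5 (adjusted p = 0.00872). The other 6 hepatocyte markers summed to 5.925 to 24.82 CPM at Day 0 and 2.377 to 10.24 CPM at Day 5 in males, and their part was not tested.

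Of 19 tested genes of parathyroid hormone signalling and mineral handling, 5 fell and 1 rose in males at Day 3 (24.5% of all genes passed) and 4 fell and 1 rose at Day 5 (19.2%), while in females at Day 3, 2 rose and 1 fell (5.54%). The phosphate transporter Slc34a1, a target of Pth1r signalling and one of the proximal tubule markers, fell in males from 5396 ± 353 to 689.4 ± 796.4 CPM at Day 5 (adjusted p = 0.0256). Its relative Slc34a3 fell in males at Day 5 from 73.5 ± 11.5 to 15.4 ± 16.7 CPM (adjusted p = 0.0315) and in females at Day 3 from 121.6 ± 17.6 to 34.8 ± 17.9 CPM (adjusted p = 0.0465). Calb1, the calcium-binding protein of the distal tubule, fell in males from 284.7 ± 27.6 CPM at Day 0 to 122.8 ± 39.3 at Day 2 and 60.9 ± 15.7 at Day 3 (adjusted p = 0.0402 and 0.00162). The summed distal convoluted tubule markers were 394.9 to 514.9 CPM in males at Day 0, 217.6 to 468.1 CPM at Day 2 and 156 to 388.5 CPM at Day 3, and their part was not tested.

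In insulin signalling, 6 of 27 tested genes rose and 1 fell in males at Day 3, where 24.5% of all genes passed, with a median log2 fold change of 0.39 against 0.02 over all genes. In females at Day 3 the median was 0.60 against 0.03, and edgeR called 0 of 27 (5.54% of all genes), with 9 at an unadjusted p under 0.05 (30.7%), DESeq2 called 6 (21.3%) and limma voom 17 (47.8%). Foxo3, a transcription factor that insulin restrains, rose in males from 42.3 ± 6.08 to 93.2 ± 20.2 CPM at Day 2 (adjusted p = 0.031) and in females from 67.6 ± 9.51 to 136.9 ± 28.1 CPM (adjusted p = 0.0499). Pck1, an enzyme of glucose production, rose in males at Day 3 from 858.6 ± 404.6 to 3530 ± 1875 CPM (adjusted p = 0.0266). Grb14, an inhibitor of Insr, fell in males at Day 3 from 13.4 ± 0.85 to 10.4 ± 0.20 CPM (adjusted p = 0.0432) and rose at Day 5 to 24.4 ± 3.41 CPM (adjusted p = 0.0123).

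Over the 32 libraries, the log2 CPM of Ghr and Thrb went together (Pearson's r = 0.72), as did those of Ghr and Pth1r (0.62) and Thrb and Insr (0.62), whereas Thra ran against Insr (-0.66), Ghr (-0.57) and Thrb (-0.53). Prlr and Esr1 gave -0.54. These are descriptions over libraries that share day and sex. The genes most like Prlr were Slc22a29 (r = 0.967), Oat (0.964) and Gm10639 (0.897), and those most like Pth1r were Qdpr (0.967), Msra (0.967) and Slc22a18 (0.962). Mat2a (0.971), Itfg1 (0.954) and Fgf1 (0.935) were most like Ghr, Mut (0.919), Atp6v1a (0.901) and Cmah (0.898) most like Thrb, and Tab1 (0.873), Sf3a2 (0.866) and Anks3 (0.862) most like Thra. Cadm1 (0.875), Gtdc1 (0.834) and Uty (0.828), the last a Y-linked gene, were most like Esr1, and Gm47173 (0.892), Slain2 (0.866) and Pde4dip (0.861) were most like Insr.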

How the data were processed

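Kidney RNA libraries were sequenced as paired-end reads, 1 library per mouse. The deposited values are unnormalised counts of reads for each gene and FPKM made by the authors from them, with gene length in a further column. Per the study's methods reads were aligned to GRCm38, whereas the submitters' processing notes list GRCm39, mm39, HTSeq and DESeq2, and gene coordinates in the files were those of GRCm38. The aligner, strandedness and tool versions are not given in the sources used here. The deposited FPKM divide a count by gene length and by a library size constant within each library.

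Members and gene lists were chosen with earlier results of these data known. Counts were tested with edgeR 4.0.16 (TMM, filterByExpr, robust quasi-likelihood, only the groups compared) in R 4.3.3, with Benjamini-Hochberg adjustment over all genes tested in each of 16 comparisons. Errors of log2 fold changes are SE. CPM used TMM library sizes over 32 libraries, and log2 CPM a prior count of 2. Named genes were the 7 receptors, up to 4 genes of each of 6 pathway lists with the largest change among those past the test in comparisons with Day 0 or of the sexes, in some comparison without overlap, and the 3 genes most correlated with each receptor. Igf1 is also given, beside Ghr. Of the listed genes, 1 (Sts) was not analysed here. Of the genes this rule names, 2 are not reported here. Mice were grouped by the labels, and no libraries were identical. Alternatives were DESeq2 1.42.0 (size factors or Wald test), other filters, no mitochondrial genes, 1 fit over 8 groups, the mouse number as block, limma 3.58.1 voom with sample weights, a fold limit and each mouse left out. The test was also run on counts simulated with the same dispersion for every gene and no outlying library. That run does not show how the test behaves on the libraries used here. Total counts of 16502107 to 35961325 limit genes of few counts, more so at Day 5, where mitochondrial genes took up to 79.8% of the counts. The R package data.table, version 1.17.8, read the files.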

Additional observations from a re-analysis of the deposited data

Results flagged for a closer look

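In 7 of 56 groups of 4 mice (7 receptors in 8 groups), 1 mouse stood so far from the other 3 that its gap to the nearest exceeded Dixon's 95% critical value for 4 samples, which chance gives in about 1 in 20 groups. In female Day 2 mouse 4, both Esr1 (5.703 CPM, the others at 1.664, 1.823 and 2.23) and Prlr (87.93 CPM, the others at 38.54, 42 and 42.52) stood high. In female Day 3 mouse 2, Prlr (117.1 CPM, the others at 28.24, 34.5 and 36.57) and Thra (73.28 CPM, the others at 44.8, 47.57 and 48.76) stood high. In the library labelled male Day 5 mouse 1, with 4153 Xist counts, Prlr (44.64 CPM, the others at 2.246, 6.447 and 7.279) and Thrb (21.43 CPM, the others at 9.992, 10.1 and 11.37) stood high. Thrb in male Day 3 mouse 4 (30.18 CPM) stood above 24.46, 25.03 and 25.25 CPM.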

How the results depend on the processing

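The counts of receptors called that moved by over 1.5 times were as follows. With DESeq2's size factors in edgeR, male Day 2 against Day 0 went from 1 to 0 and female Day 3 from 2 to 1. Of all genes, 3.16% passed at male Day 2 with these size factors and in the main fit. At female Day 3, 135 rose and 297 fell, against 215 and 730 in the main fit. DESeq2's Wald test gave 2 for female Day 2 (from 0), 1 for female Day 5 (from 0), 2 for the sexes at Day 2 (from 1) and 2 at Day 5 (from 0). Without a filter on low counts, male Day 2 gave 0, female Day 2 gave 1, female Day 3 gave 1, and the sexes at Day 2 and Day 5 gave 2 and 1, and at least 10 counts in every library gave 1 for female Day 2. With no filter, 1.13% of all genes passed at male Day 2. At female Day 2, 315 rose and 744 fell of 31062, and at female Day 3, 264 and 764 of 31833. Between the sexes, 234 and 157 of 31364 passed at Day 2 and 255 and 106 of 28062 at Day 5. At least 10 counts gave 263 and 641 of 13573 genes at female Day 2, against 128 and 192 of 16541 in the main fit. A fit over all 8 groups gave 0 for male Day 3 (from 2), 2 for female Day 2, 1 for female Day 5, and 2 for the sexes at each of Day 2, Day 3 (from 4) and Day 5. With limma voom, male Day 2 gave 3, male Day 5 gave 4 (from 2), female Day 2, Day 3 and Day 5 gave 4, 4 and 2, the sexes at Day 2 and Day 5 gave 4 and 5, and the sex differences in the change gave 1, 1 and 5 (from 0). A limit of 1.5 on the absolute log2 fold change left 0 for male Day 2, male Day 3 and female Day 3, 1 for male Day 5, 1 for male Day 5 against Day 3 (from 4) and 2 for the sexes at Day 3. The share of all genes called moved too. Against Day 0 it was 0.258% to 24.5% with edgeR, 4.5% to 35.1% with DESeq2, 10.9% to 31.1% in the fit over 8 groups and 18.9% to 57.1% with limma voom (46.4%, 57.1% and 54.8% in males, 50%, 47.8% and 18.9% in females at Day 2, Day 3 and Day 5). Between the sexes it was 0.276% to 21.3%, 5.12% to 25.9%, 0.763% to 9.69% and 19% to 42.5%. The causes were not tested. Leaving out mitochondrial genes moved none of the 16 counts, and no called fold change was reversed in any setting or with any 1 mouse left out.

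The deviations of same-numbered mice correlated at -0.4151 to 0.4814 over 18220 genes, and in 0 of 14 comparisons did all 4 correlations exceed 0.1, so the numbers were not taken to pair the mice. Between the sexes at Day 0, mice 1, 3 and 4 gave 0.272, 0.444 and 0.481 and mouse 2 gave -0.0737. With the mouse number as a replicate block, male Day 2, male Day 3 and female Day 3 each gave 0 receptors against Day 0 (0.0312%, 0.566% and 0% of all genes), and the other 13 counts stayed within 1.5 times.

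With 1 mouse left out at a time, the counts ranged from 0 to 2 for male Day 2, 0 to 3 for male Day 3, 1 to 3 for male Day 5, 0 to 3 for female Day 2, 0 to 3 for female Day 3 and 0 to 1 for female Day 5. The share of all genes called in these fits ranged from 0.079% to 14%, 4.18% to 38.6%, 5.38% to 26%, 0.125% to 28.3%, 0% to 39.1% and 0.0483% to 12.6%. They ranged from 3 to 5 for male Day 5 against Day 3, 1 to 2 for the sexes at Day 2, 2 to 4 at Day 3 and 0 to 4 at Day 5 (22.3% to 55.2%, 0.567% to 3.35%, 11.1% to 34.6% and 0% to 17% of all genes), and stayed at 0 for the other 6. The number of receptors apart between the sexes at Day 0 was 1 to 3, with 3 (Prlr, Esr1 and Ghr) without male Day 0 mouse 4. The share of all genes apart in those fits is not given here, so this count describes the mice only. Prlr, 1 of the 3, had been noted at Day 0. Low counts of Prlr and Esr1 at Day 5 limit the precision there.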

Other observations

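Among 49 other hormone receptors in a list drawn up with earlier results known, 28 to 34 were tested in a comparison. In males, 2 rose and 1 fell at Day 2, 5 rose and 4 fell at Day 3, and 4 rose and 1 fell at Day 5, where 3.16%, 24.5% and 19.2% of all genes tested passed. Epor, the erythropoietin receptor, rose in Day 5 males from 5.78 ± 1.09 to 19.5 ± 9.89 CPM (SD, n = 4, adjusted p = 0.015; 0.00123 without the library labelled male Day 5 mouse 1). The summed erythroid markers lay between 204.3 and 5501 CPM in those males and between 434 and 2150 CPM at Day 0, and their part was not tested. Sctr, the secretin receptor, fell at Day 3 in males (from 2.00 ± 1.32 to 0.65 ± 0.20 CPM, adjusted p = 0.0422) and in females (from 3.38 ± 1.24 to 1.01 ± 0.36 CPM, adjusted p = 0.0479). In Day 5 males it was higher than at Day 0, by a log2 fold change of 1.61 that did not pass (adjusted p = 0.0608). Without the library labelled male Day 5 mouse 1 that change of Sctr was 1.88 (adjusted p = 0.0253).

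Mc2r, the adrenocorticotropic hormone receptor and one of the adrenal cortex markers, was higher in Day 5 females than in Day 5 males (7.19 ± 2.38 against 0.96 ± 0.25 CPM, adjusted p = 0.0202, and 0.00166 without the library labelled male Day 5 mouse 1), where the summed adrenal cortex markers were 408.2 to 1048 CPM in females and 24.85 to 121.2 CPM in males. Oxtr, the oxytocin receptor and one of the ovary, oviduct and uterus markers, was higher in Day 3 females than in Day 3 males (3.64 ± 2.89 against 0.54 ± 0.10 CPM, adjusted p = 0.0252), where that list summed to 5.269 to 39.87 CPM in females and 2.735 to 3.32 CPM in males.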
